A study of Mus musculus with 7 samples.

Results

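The neural miRNAs followed here are 10 mature miRNAs known from neural tissue, taken by name from a deposited count table of small RNAs bound to Ago2: mmu-miR-9-5p, mmu-miR-9-3p, mmu-miR-124-3p, mmu-miR-128-3p, mmu-miR-129-5p, mmu-miR-129-1-3p, mmu-miR-129-2-3p, mmu-miR-219-1-3p, mmu-miR-204-5p and mmu-miR-204-3p. The species prefix is left out below. They are 10 of the 950 miRNAs in the table and occupy 18 of its 1078 loci, and a name with several loci was counted once. Ago2 is an Argonaute, the protein that carries a small guide RNA, kept from a duplex, and the title of the series asks whether the protein itself sets which strand is kept. Flag-tagged Ago2 was recovered by its tag (anti-Flag) from embryonic stem cells of mouse grown with serum and leukemia inhibitory factor, and its small RNAs were sequenced in 7 libraries. All groups share an Ago-null background, so the tagged protein stands in for the Argonautes that these cells lack. The groups were the 5 mutants K566A, Q548A, R792A_C793A, GKT_GKGT and PGKTP_AAAAA, wild-type Ago2 (WT) and a control labelled empty. Each group is 1 library, the labels give no clone, passage or protein level, and the counts cannot show the mutations themselves. No difference below therefore has a replicate check, and each one compares 2 libraries.

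A miRNA hairpin is cut into a duplex of a 5p and a 3p arm, and Argonaute keeps one arm while the other is discarded. Bases 2 to 8 of the kept arm, the seed, pair with target mRNAs, and the MID domain of Argonaute, which K566A and Q548A change, holds its 5′ end. In the nervous system miR-9 acts in neural progenitors, miR-124 is the abundant miRNA of neurons, miR-128 and miR-129 are enriched in brain, and the 5p arm of miR-219 is needed in oligodendrocytes. miR-204 is known from the choroid plexus and the retinal pigment epithelium. Embryonic stem cells are dominated by another set, the miR-290 cluster.

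The mature sequences of the neural miRNAs are shown because arm, seed and first base are named in the later comparisons. They are RefSeq sequences (GRCm38.p6), found for 8 of the 10, and the seed is in capitals.
miR-9-5p: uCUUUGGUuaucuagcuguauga
miR-9-3p: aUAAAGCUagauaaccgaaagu
miR-128-3p: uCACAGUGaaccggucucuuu
miR-129-5p: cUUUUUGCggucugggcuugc
miR-129-2-3p: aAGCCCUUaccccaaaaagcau
miR-219-1-3p: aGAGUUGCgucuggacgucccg
miR-204-5p: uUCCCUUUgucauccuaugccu
miR-204-3p: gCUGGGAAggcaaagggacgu
No 2 of these 8 share a seed. RefSeq names miR-219-1-3p miR-219a-1-3p, and miR-124-3p and miR-129-1-3p are named only. The arm set against each of them matters too, and so does miR-211-5p, the close relative of miR-204-5p.
miR-211-5p: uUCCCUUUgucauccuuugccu
miR-211-3p: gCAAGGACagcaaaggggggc
miR-219-5p: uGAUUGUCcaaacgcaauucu
miR-128-1-5p: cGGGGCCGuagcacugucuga
miR-128-2-5p: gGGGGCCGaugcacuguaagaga
miR-204-5p and miR-211-5p have the same seed and differ by 1 substitution, A17U, with positions counted from 1 at the 5′ end of miR-204-5p. Of these 13 miRNAs, miR-129-5p and miR-128-1-5p begin with C, miR-9-3p, miR-129-2-3p and miR-219-1-3p with A, and miR-204-3p, miR-211-3p and miR-128-2-5p with G. The others begin with U.

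The hairpins of miR-129-2 and miR-204 show how the arms lie, with the 5p and then the 3p arm in capitals (RefSeq, GRCm38.p6).
Mir129-2: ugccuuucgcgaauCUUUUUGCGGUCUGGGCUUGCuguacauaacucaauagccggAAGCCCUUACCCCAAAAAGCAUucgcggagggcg
Mir204: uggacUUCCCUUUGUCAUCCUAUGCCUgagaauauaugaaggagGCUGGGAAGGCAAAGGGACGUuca
By the deposited positions (build mm9), miR-9 has 3 copies and miR-9-5p lies at chr13:83878426-83878448, chr3:88019535-88019557 and chr7:86650165-86650187. miR-128-3p has 2 copies, at chr1:130098981-130099001 and chr9:112021148-112021168. The copy of miR-129-5p at chr6:28972624-28972644 pairs with miR-129-1-3p and the one at chr2:94081576-94081596 with miR-129-2-3p. miR-219-1-3p lies at chr17:34161955-34161976, miR-204-5p at chr19:22825100-22825121 and miR-204-3p at chr19:22825139-22825159. miR-124-3p has 3 copies, on chromosomes 14, 2 and 3. Counts at the copies of 1 name differed by at most 9 reads, so the copies cannot be told apart.

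By name in GENCODE M21, the miR-128 hairpins are in introns of the protein-coding genes R3hdm1 (Mir128-1) and Arpp21 (Mir128-2). Mir204 and Mir211 are in introns of the ion channel genes Trpm3 and Trpm1. The hairpins of miR-9, miR-129 and miR-219-1 are in long noncoding RNAs, in an exon for Mir9-2 (C130071C03Rik), Mir129-1 (Gm3294) and Mir219a-1 (Gm26940), and in an intron for Mir9-1 (Gm3764), Mir9-3 (Mir9-3hg) and Mir129-2 (Mir670hg). RefSeq places an opposite-strand hairpin over Mir129-2 (Mir129b), Mir219a-1 (Mir219c), Mir9-1 (Gm25641) and Mir9-2 (Gm51268). Whether counting used strand is not stated in these sources, so reads of miR-9-5p, miR-9-3p, miR-129-2-3p, miR-129-5p and miR-219-1-3p are uncertain to that extent.

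Total counts per library ran from 14914048 in K566A to 94842507 in WT, and the empty control held 33461. Levels are counts per 1000000 (CPM), and where a miRNA had 0 counts the limit taken was 3 counts, or 0.201 CPM in K566A, 0.0316 CPM in WT and 89.7 CPM for the empty control. Intervals cover counting error only. The stem cell label was matched: 13 of 13 miRNAs of the miR-290 and miR-302 clusters had counts, with a summed level of 594066 CPM in K566A, 725484 to 796410 CPM in the other mutants and 765199 CPM in WT. miR-292-5p, which begins that list by level, took 21.7% of counts in K566A against 57.3% to 70.5% in the other mutants and 63.7% in WT. miR-291a-5p was also lower in K566A than in WT (2110 against 5045 CPM), and every other miRNA of that list was higher. Among these were miR-293-3p (183880 against 53722 CPM), miR-294-3p (92682 against 19962 CPM) and miR-302b-3p (4286 against 403 CPM). Summed markers of other tissues were also higher in K566A by totals, as were many miRNAs. The median log2 ratio of K566A to WT was 0.92 over the 337 miRNAs compared below. Of these, 47.5% were higher with an interval past 2-fold. Whether any marker sum went beyond that general shift was not tested. The 4 fibroblast markers summed to 3981 CPM in K566A, 449.6 to 1123 CPM in the other mutants and 1016 CPM in WT, and the endothelial miR-126-3p was at 1458 CPM in K566A, 162 to 333 CPM in the other mutants and 155 CPM in WT. The fibroblast sum in K566A was almost all miR-143-3p, with 3968 CPM against 995 CPM in WT. In the same K566A library miR-145-5p, another of the 4, was at 0.134 CPM (2 counts) against 13.6 CPM in WT, and miR-214-3p was at 0 in K566A, so 3 of the 4 fibroblast markers had counts there. The blood list, of which 3 of 5 had counts in K566A, summed to 1049.8 CPM in K566A, 311 to 629 CPM in the other mutants and 496 CPM in WT, with miR-150-5p as its main part (1011 CPM in K566A, 487 CPM in WT) and the blood marker miR-223-3p at 0 in every library. The 2 epithelial markers summed to 418 CPM in K566A, 147 to 354 CPM in the other mutants and 235 CPM in WT, and the muscle, liver and endocrine lists each summed to at most 22.5 CPM in the Ago2 libraries.

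Neural miRNAs were a small and uneven share of what Ago2 held in these cells. Summed, the 10 took 2.67% of counts in K566A (exact 95% interval 2.67 to 2.68), 0.512% in Q548A and 0.821% in R792A_C793A, 0.464% in GKT_GKGT, 0.460% in PGKTP_AAAAA and 0.430% in WT (0.428 to 0.431). The K566A share was thus the highest of the libraries by totals. Without miR-292-5p in the totals it was 3.42%, against 1.92% in R792A_C793A and 1.18% in WT, so the size of the gap depends on that miRNA. miR-128-3p alone made up 91.9% of that sum in K566A, 78.0% in GKT_GKGT, 79.2% in PGKTP_AAAAA and 90.3% in WT. Without miR-128-3p, the other 9 summed to 2166 CPM in K566A, 529 CPM in Q548A, 772 CPM in R792A_C793A, 1020 CPM in GKT_GKGT, 957 CPM in PGKTP_AAAAA and 416 CPM in WT. Every mutant was above WT by that sum, but its main part differed. It was miR-219-1-3p in K566A (1522 CPM) and miR-129-5p in the other libraries (811 CPM in GKT_GKGT, 780 CPM in PGKTP_AAAAA, 257 CPM in WT). The sum thus does not show a rise shared by the 9. In bulk libraries such as these, fewer cells with a miRNA and less of it per cell cannot be told apart. The mature sequences differ little in length (21 to 23 nt for those shown), so levels are compared between miRNAs as CPM, and differences in ligation or amplification between sequences were not tested.

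**Figure D1:**
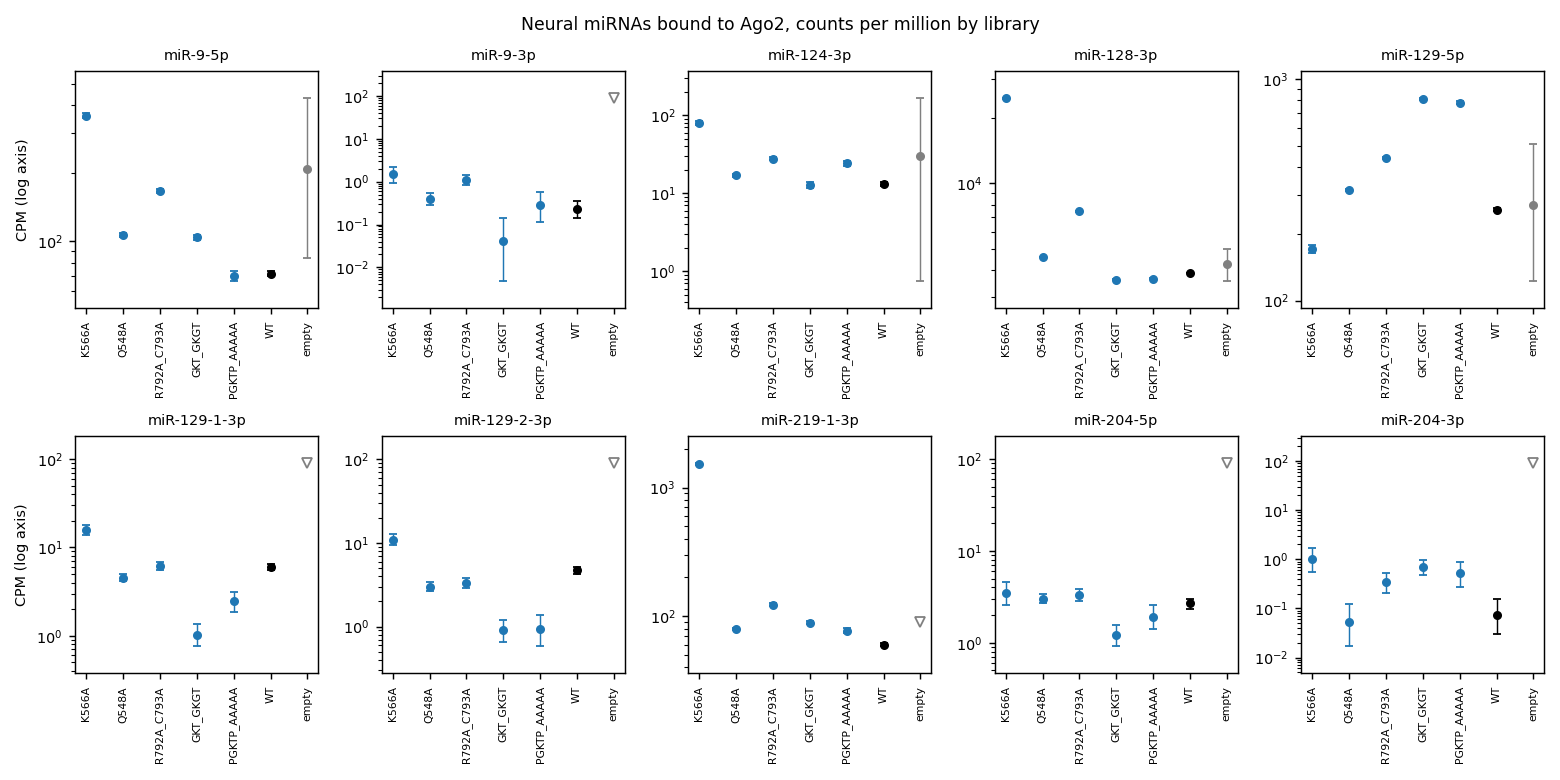
Level of each of the 10 neural miRNAs (panels, each with its own log axis, CPM) in the 5 mutants (blue), WT (black) and the empty control (grey), 1 library each. Points are CPM, bars exact Poisson 95% intervals, and an open triangle marks the limit that a count of 0 allows. K566A is the highest of the 6 Ago2 libraries for 9 of the 10 and the lowest for miR-129-5p.

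miR-128-3p, known for restraining neuronal excitability, was the abundant one. It had 24578 CPM in K566A, 4587 CPM in Q548A, 7434 CPM in R792A_C793A, 3620 CPM in GKT_GKGT, 3646 CPM in PGKTP_AAAAA and 3882 CPM in WT. It ranked 8 of 950 miRNAs in K566A against 23 in WT. K566A was far above the rest, R792A_C793A came next, and the Poisson intervals of GKT_GKGT and PGKTP_AAAAA, at the low end, overlapped. In the empty control it had 142 counts (4244 CPM), where the WT level would give 130, and the interval of log2 of WT over empty, -0.37 to 0.12, includes 0.

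miR-9-5p, whose known targets include the neural stem cell regulator Nr2e1, had 360.0 CPM in K566A, 106 CPM in Q548A, 167 CPM in R792A_C793A, 104 CPM in GKT_GKGT, 69.8 CPM in PGKTP_AAAAA and 71.5 CPM in WT. The order of libraries resembled that of miR-128-3p at the top, while Q548A and GKT_GKGT did not differ beyond their intervals, nor did PGKTP_AAAAA and WT. Its partner arm miR-9-3p was scarce, with 22 counts in K566A, 38 in Q548A and 62 in R792A_C793A, 2 in GKT_GKGT, 7 in PGKTP_AAAAA and 22 in WT. In CPM that is 1.48, 0.401, 1.11, 0.0403, 0.281 and 0.232 CPM in the same libraries, so K566A and R792A_C793A, whose intervals overlap, held the high end.

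miR-124-3p, which represses the splicing factor Ptbp1 as neurons form, had 79.5 CPM in K566A, 17.1 CPM in Q548A, 27.8 CPM in R792A_C793A, 12.8 CPM in GKT_GKGT, 24.2 CPM in PGKTP_AAAAA and 13.1 CPM in WT. The intervals of GKT_GKGT and WT overlapped and those of all other neighbours in this order did not. It was the lowest of the 5 that reached a mean of 10 CPM, and ranked 193 of 950 in K566A against 297 in WT.

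miR-219-1-3p is the 3p arm of a hairpin whose 5p arm is the one known from oligodendrocytes. It had 1522 CPM in K566A, 79.2 CPM in Q548A, 123 CPM in R792A_C793A, 88.8 CPM in GKT_GKGT, 77.2 CPM in PGKTP_AAAAA and 60.1 CPM in WT. It ranked 48 of 950 in K566A against 176 in WT, and WT was the lowest library. Of neighbours in this order, Q548A and PGKTP_AAAAA alone had overlapping intervals. The 5p arm, miR-219-5p, had 8 counts in K566A, 4 or 5 in each of the other mutants and 2 in WT. By these counts Ago2 thus held the 3p arm of miR-219-1 almost alone, with the 5p arm at or below 0.208% of the hairpin in every Ago2 library. Because use of strand is not stated, reads from the opposite-strand Mir219c cannot be told apart from these. The 3p arm of the other copy, miR-219-2-3p, had 75 counts in K566A, 20 to 64 in the other mutants and 61 in WT.

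miR-129-5p went the other way. It had 171 CPM in K566A, 316 CPM in Q548A, 439 CPM in R792A_C793A, 811 CPM in GKT_GKGT, 780 CPM in PGKTP_AAAAA and 257 CPM in WT. The libraries of the MID loop mutants GKT_GKGT and PGKTP_AAAAA were the highest and K566A the lowest, and no neighbours in this order had overlapping intervals. The 3p arms of its copies were highest in K566A, where it was lowest. miR-129-1-3p had 16.0 CPM in K566A, 4.56 CPM in Q548A, 6.17 CPM in R792A_C793A, 1.03 CPM in GKT_GKGT, 2.45 CPM in PGKTP_AAAAA and 6.01 CPM in WT. miR-129-2-3p had 10.996 CPM in K566A, 2.999 CPM in Q548A, 3.32 CPM in R792A_C793A, 0.906 CPM in GKT_GKGT, 0.923 CPM in PGKTP_AAAAA and 4.72 CPM in WT. Both 3p arms were low in GKT_GKGT, where miR-129-5p was highest. The intervals of R792A_C793A and WT overlapped for miR-129-1-3p, and those of Q548A and R792A_C793A, and of GKT_GKGT and PGKTP_AAAAA, for miR-129-2-3p.

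miR-204-5p was low, with 3.49 CPM in K566A, 3.03 CPM in Q548A, 3.30 CPM in R792A_C793A, 1.21 CPM in GKT_GKGT, 1.93 CPM in PGKTP_AAAAA and 2.68 CPM in WT. Ranked by level, each library's interval overlapped the next, but that of GKT_GKGT did not meet that of WT (log2 ratio -1.14, -1.58 to -0.74, not called past 2-fold). miR-204-3p rested on 15 counts in K566A (1.006 CPM), 5 in Q548A (0.0528) and 19 in R792A_C793A (0.339), 34 in GKT_GKGT (0.685), 13 in PGKTP_AAAAA (0.522) and 7 in WT (0.0738). The 4 mutants other than Q548A were above WT, with intervals that did not meet that of WT.

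Which of these levels differed between libraries was asked over all miRNAs that averaged 10 CPM or more across the 6 Ago2 libraries, 337 in all and 5 of the 10 neural ones. A difference was called where the exact conditional 95% interval of the CPM ratio lay wholly above 2-fold or below 0.5. miR-9-5p, miR-124-3p, miR-128-3p, miR-129-5p and miR-219-1-3p reached the mean, and they also do when K566A is left out of it (at least 19.0 CPM). The other 5 were compared without the mean filter, over 838 miRNAs with counts in the Ago2 libraries.

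In K566A all but miR-129-5p of the tested neural miRNAs were called above WT. miR-219-1-3p rose 25.3-fold (log2 ratio 4.66, interval 4.62 to 4.70), the sixth highest ratio of the 337. miR-128-3p rose 6.33-fold (2.66, 2.66 to 2.67), miR-124-3p 6.04-fold (2.60, 2.48 to 2.71) and miR-9-5p 5.03-fold (2.33, 2.28 to 2.38). Thus 4 of the 5 were called higher, in a library where 47.5% of all tested miRNAs were called higher and 67.1% in either direction. miR-129-5p was at -0.59 (-0.65 to -0.53) and not called. The 5 had a median log2 ratio of 2.60 against 0.92 for all tested miRNAs. Relative to that median of all, miR-219-1-3p was at 3.75, miR-128-3p at 1.75, miR-124-3p at 1.68, miR-9-5p at 1.42 and miR-129-5p at -1.51.

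The scale bears on these values. Taking library size by the median of ratios lowers each K566A log2 ratio by 0.84, and leaving miR-292-5p out of the totals lowers it by 1.11. The 4 rises were called under each of these scalings, and miR-129-5p was then called lower, at -1.43 and -1.70. Over all 337, the calls were 160 higher and 66 lower by totals, and 111 higher and 106 lower by the median of ratios. Of the 5 scarce neural miRNAs, miR-9-3p (2.67, 1.75 to 3.59, from 22 counts in K566A and 22 in WT), miR-129-1-3p (1.41, 1.18 to 1.63) and miR-204-3p (3.72, 2.39 to 5.30, from 15 counts in K566A and 7 in WT) were called higher by totals. miR-129-2-3p (1.22) and miR-204-5p (0.39) were not called. Without the mean filter 7 of the 10 were thus called, where 46.2% of miRNAs were. By the median of ratios miR-9-3p (1.83) and miR-129-1-3p (0.57) were no longer called and miR-204-3p (2.88) was, an alternative chosen after seeing the data. The higher levels of miR-143-3p, miR-126-3p, miR-150-5p and the epithelial markers in the same library are given above. Their part in these results was not tested, nor whether they went beyond the median of all tested miRNAs.

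K566A was also set against the other mutants, which leaves the WT library out. Against Q548A, where 66.8% of tested miRNAs were called, miR-219-1-3p (4.26), miR-128-3p (2.42), miR-124-3p (2.22) and miR-9-5p (1.77) were called higher, and miR-129-5p was at -0.89. By the median of ratios miR-9-5p (1.03) was no longer called against Q548A and miR-129-5p (-1.63) was called lower, and without miR-292-5p in the totals miR-124-3p (1.047) lost its call too. Against R792A_C793A (59.6% called) the same 4 were higher, at 3.63, 1.73, 1.52 and 1.10, and miR-129-5p was lower, at -1.36. By the median of ratios miR-9-5p (0.63) and miR-124-3p (1.04) lost this call, and without miR-292-5p in the totals miR-128-3p (0.85) lost it as well. Against GKT_GKGT (72.7% called) the 4 log2 ratios were 4.10, 2.76, 2.63 and 1.795, and against PGKTP_AAAAA (71.8% called) they were 4.30, 2.75, 1.72 and 2.37, all called higher by totals. By the median of ratios miR-9-5p (0.77) was no longer called against GKT_GKGT, and neither were miR-9-5p (0.90) and miR-124-3p (0.25) against PGKTP_AAAAA. miR-129-5p fell by 2.25 and by 2.19 in these 2 comparisons. In each of the 4 comparisons miR-219-1-3p held the largest ratio of the 5, and miR-129-5p was the one below 0. With no mean filter, 8 of the 10 were called against Q548A, where 45.7% of miRNAs were, 7 against R792A_C793A (39.4%), 8 against GKT_GKGT (50%) and 8 against PGKTP_AAAAA (46.2%). The 4 comparisons share the K566A library.

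**Figure D2:**
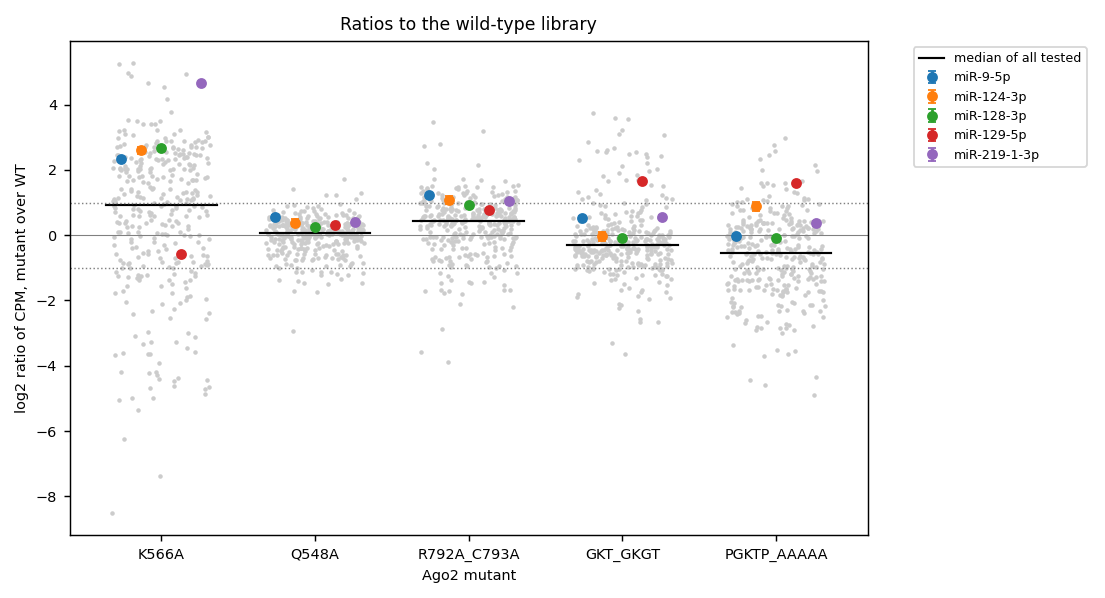
Log2 ratio of CPM, mutant over WT (vertical axis), for the 5 neural miRNAs tested (colours, with exact 95% intervals that are mostly smaller than the points) and all 337 tested miRNAs (grey), by mutant. Black bars are medians of all tested, 0.92 in K566A, and dotted lines mark 2-fold. miR-219-1-3p lies near the top in K566A, and miR-129-5p is the one neural miRNA past the upper dotted line in GKT_GKGT and PGKTP_AAAAA.

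In Q548A no neural miRNA was shown to differ from WT by 2-fold. The 5 log2 ratios lay between 0.24 (miR-128-3p) and 0.57 (miR-9-5p), and 0 were called where 6.23% of all tested miRNAs were. With no mean filter 0 of the 10 were called, where 4.53% of miRNAs were, and the same held under the other scalings for the 5 tested. The median of all tested miRNAs was 0.07.

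In R792A_C793A miR-9-5p rose 2.34-fold (log2 ratio 1.23, 1.18 to 1.27). The other 4 tested were at 1.08 (miR-124-3p, 0.97 to 1.19), 1.03 (miR-219-1-3p), 0.94 (miR-128-3p) and 0.77 (miR-129-5p) and not called. That is 1 of 5 called where 22.6% of all tested miRNAs were and 15.7% were called higher. The 5 lay close together, each above the median of all, 0.43. The call for miR-9-5p was lost by the median of ratios (0.86) and without miR-292-5p in the totals (0.99), and over all miRNAs the calls then turned to 20 higher and 43 lower by the median of ratios, against 53 and 23 by totals. Among the scarce members miR-9-3p was called higher (2.23, 1.53 to 3.03), so 2 of the 10 were called without the filter, where 14.9% of miRNAs were.

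In GKT_GKGT miR-129-5p rose 3.16-fold (log2 ratio 1.66, 1.63 to 1.68), while its 3p partners miR-129-1-3p and miR-129-2-3p fell by 2.54 and 2.37 on the log2 scale. miR-9-5p (0.54), miR-219-1-3p (0.56), miR-124-3p (-0.04) and miR-128-3p (-0.10) were not called. So 1 of the 5 tested was called, where 22.8% of all tested miRNAs were and 11% were called higher. Without the filter 4 of the 10 were called, where 17.5% of miRNAs were, and of these miR-204-3p was called higher (3.14, 2.02 to 4.63) on 34 counts against 7 in WT. The partner arm miR-124-5p rose too, at 2.16 (1.97 to 2.35). The median of all tested was -0.29, and miR-124-3p and miR-128-3p turned to values above 0 under each other scaling.

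PGKTP_AAAAA gave a similar picture for miR-129. miR-129-5p rose 3.03-fold (log2 ratio 1.60, 1.57 to 1.63) and miR-129-2-3p fell by 2.33, while miR-129-1-3p was at -1.29 (-1.70 to -0.91) and not called. miR-124-3p was at 0.88 (0.73 to 1.02), miR-219-1-3p at 0.36, miR-9-5p at -0.04 and miR-128-3p at -0.09. This is 1 of 5 tested called, where 40.7% of all tested miRNAs were, 7.12% higher and 33.5% lower. The median of all was -0.54, so each of the 5 lay above it, and by the median of ratios, which adds 0.62, miR-124-3p was called as well. That scaling gave 55 higher and 57 lower calls over all miRNAs, against 24 and 113 by totals. miR-204-3p (2.78, 1.39 to 4.39) was called higher too, which made 3 of the 10 without the filter, where 28.2% of miRNAs were.

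Set directly against PGKTP_AAAAA, GKT_GKGT had miR-124-3p at -0.92, miR-128-3p at -0.01, miR-129-5p at 0.06, miR-219-1-3p at 0.20 and miR-9-5p at 0.57. None of the 5 was called, where 31.5% of all tested miRNAs were, so a 2-fold difference between the loop mutants was not shown for any. miR-124-3p was called lower in GKT_GKGT by the median of ratios.

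Library size cancels when the arms of 1 hairpin are compared within a library. The 5p-to-3p odds were tested in 395 hairpins with at least 100 counts, 9 of them neural (miR-9, miR-124, miR-128-1, miR-128-2, miR-129-1, miR-129-2, miR-204, miR-219-1 and miR-219-2). miR-128-3p, miR-129-5p and miR-219-5p are shared by copies, so each copy was set against the shared arm and the copies are not independent.

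Arm use of the miR-129 hairpins changed in opposite directions between K566A and the loop mutants. The 5p arm was 91.5% of miR-129-1 counts in K566A, 98.6% in both Q548A and R792A_C793A, 99.87% in GKT_GKGT, 99.7% in PGKTP_AAAAA and 97.7% in WT. In log2 odds the change from WT was -2.001 in K566A (-2.23 to -1.77), 4.19 in GKT_GKGT (3.79 to 4.65) and 2.89 in PGKTP_AAAAA (2.51 to 3.30). For miR-129-2 it was -1.81 in K566A, 4.03 in GKT_GKGT, 3.93 in PGKTP_AAAAA and 1.28 in R792A_C793A (1.03 to 1.54). All of these were called, and in Q548A both were not, at 0.69 and 0.95. Thus the 3p arm, A-first in miR-129-2, gained in K566A, and the C-first 5p arm gained in the loop mutants. Whether the first base had a part in this, or in the arm changes of the hairpins below, was not tested.

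The 3p arms of the miR-129 copies are counted under separate names, and their proportion was compared as well. miR-129-1-3p made up 59.2% of the 2 in K566A, 60.3% in Q548A and 65.0% in R792A_C793A, 53.1% in GKT_GKGT, 72.6% in PGKTP_AAAAA and 56.0% in WT. No library was called different from WT by that ratio, and the log2 odds farthest from 0 was 1.04 in PGKTP_AAAAA (0.32 to 1.84).

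The miR-124 hairpin changed arms in GKT_GKGT. There miR-124-5p was 54.3% of its counts (757 of miR-124-5p and 636 of miR-124-3p), against 20.6% in WT (324 and 1247). The log2 odds changed by 2.19 (1.96 to 2.43). The 5p share was 23.8% in K566A, 15.4% in Q548A, 18.8% in R792A_C793A and 10.9% in PGKTP_AAAAA, and none of these was called. GKT_GKGT was therefore the library in which the usually minor 5p arm was the larger. PGKTP_AAAAA, the other loop mutant, was on the other side of WT at -1.07 (-1.49 to -0.68).

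The miR-204 hairpin shifted to its 3p arm in 3 mutants. The 5p share was 77.6% in K566A (52 and 15 counts), 98.3% in Q548A and 90.7% in R792A_C793A, 63.8% in GKT_GKGT, 78.7% in PGKTP_AAAAA and 97.3% in WT. The log2 odds of 5p to 3p fell by 3.32 in K566A, by 4.27 in GKT_GKGT and by 3.24 in PGKTP_AAAAA, all called. It was -1.83 in R792A_C793A (-3.42 to -0.54), not called. Each rests on 13 to 34 counts of the 3p arm in the mutants and 7 in WT. miR-204-3p begins with G and miR-204-5p with U.

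**Figure D3:**
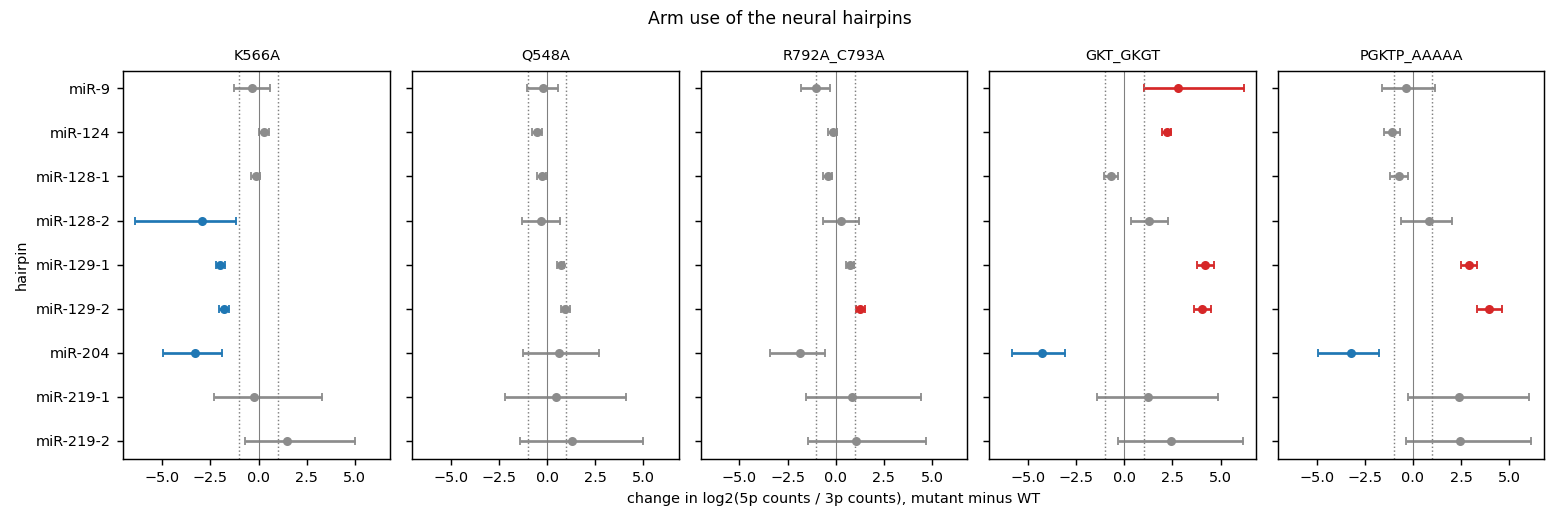
Change in log2 of 5p over 3p counts, mutant minus WT (horizontal axis), for the 9 neural hairpins (rows) in each mutant (panels), with exact 95% intervals. Red marks a call to the 5p arm, blue to the 3p arm and grey no call, and dotted lines mark 2-fold. miR-129-1 and miR-129-2 lie left of 0 in K566A and right of it in GKT_GKGT and PGKTP_AAAAA, and miR-204 lies left of 0 in these 3 mutants.

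By count, 4 of the 9 neural hairpins were called in K566A, all towards the 3p arm, where 38.2% of all hairpins were called. They were miR-129-1, miR-129-2, miR-204 and miR-128-2, and the last had 2 counts of its 5p arm in K566A against 19 in WT (-2.96, -6.39 to -1.19). Its 3p arm is shared with miR-128-1, so an arm change of the miR-128-2 copy itself is not shown. By level miR-128-2-5p was at -0.29 (-3.73 to 1.47), not called, while miR-128-1-5p (2.52) rose with miR-128-3p (2.66). The log2 odds of miR-128-1-5p to miR-128-2-5p changed by 2.81 (1.02 to 6.25), called. In Q548A 0 of 9 were called, where 9.37% were, and in R792A_C793A 1 of 9, where 20.3% were. In GKT_GKGT 5 of 9 were called, where 28.6% were: miR-124, miR-129-1, miR-129-2 and miR-9 towards the 5p arm and miR-204 towards the 3p arm. The call for miR-9 had 2 counts of miR-9-3p in GKT_GKGT against 22 in WT (2.77, 1.04 to 6.20). In PGKTP_AAAAA 3 of 9 were called, where 24.8% were. The hairpins that were not called in any mutant were miR-128-1, miR-219-1 and miR-219-2, and in the first of these miR-128-3p was over 99.9% of counts in every Ago2 library.

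miR-211 comes from a hairpin in an intron of Trpm1 and is known from melanocytes, and its 5p arm shares the seed of miR-204-5p. It fell in 3 mutants. miR-211-5p had 5.43 CPM in K566A, 54.6 CPM in Q548A, 36.6 CPM in R792A_C793A, 17.9 CPM in GKT_GKGT, 14.7 CPM in PGKTP_AAAAA and 64.8 CPM in WT. The log2 ratios to WT were -3.57 in K566A, -1.85 in GKT_GKGT and -2.14 in PGKTP_AAAAA, called lower, and -0.25 in Q548A and -0.82 in R792A_C793A, not called. Of the reads of this seed pair, miR-204-5p made up 39.1% in K566A (52 of miR-204-5p and 81 of miR-211-5p), 5.26% in Q548A and 8.26% in R792A_C793A, 6.32% in GKT_GKGT, 11.6% in PGKTP_AAAAA and 3.97% in WT. In log2 odds the change from WT was 3.96 in K566A (3.39 to 4.51) and 1.68 in PGKTP_AAAAA (1.16 to 2.14), both past 2-fold. It was 1.12 in R792A_C793A, 0.72 in GKT_GKGT and 0.42 in Q548A, not past it. The 2 miRNAs of this pair come from separate hairpins, and their ratios in K566A were unequal, a comparison from which library size cancels. The 3p arms of these hairpins gave 2.32 (0.91 to 3.97) in K566A, not called, on 15 counts of miR-204-3p and 63 of miR-211-3p. What part the A17U has in this was not tested.

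The miR-211 hairpin moved like miR-204 by arm. Its 5p share was 56.3% in K566A, 98.5% in Q548A and 92.9% in R792A_C793A, 76.3% in GKT_GKGT, 73.2% in PGKTP_AAAAA and 97.6% in WT. The change in log2 odds was -4.96 in K566A, -3.64 in GKT_GKGT, -3.88 in PGKTP_AAAAA and -1.62 in R792A_C793A, all called. miR-211-3p, G-first like miR-204-3p, was called higher in GKT_GKGT (1.78) and PGKTP_AAAAA (1.74). In both hairpins the 3p arm gained share in K566A and the loop mutants.

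**Figure D4:**
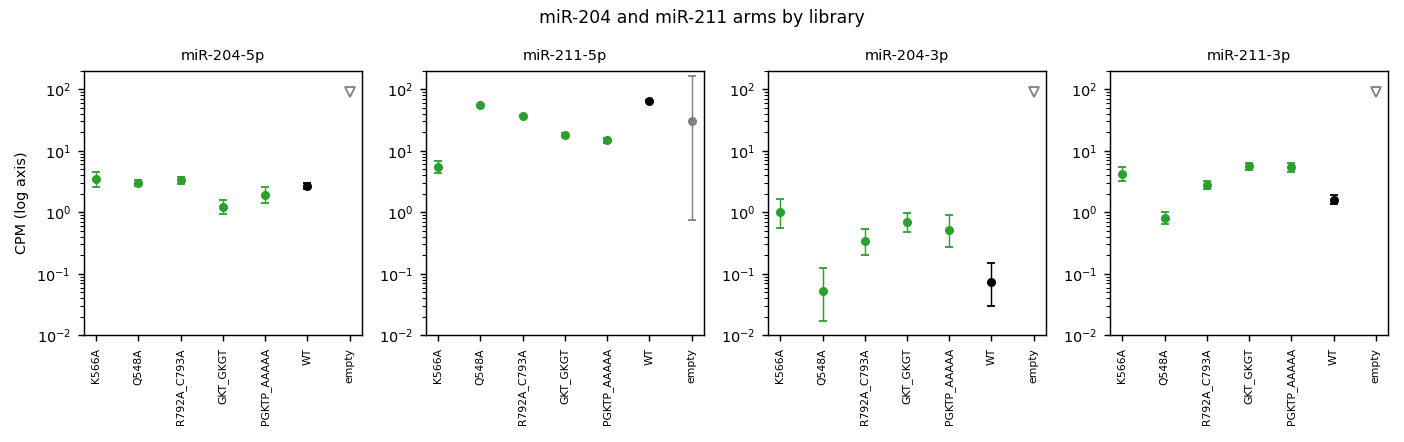
CPM on a log axis of both arms of miR-204 and miR-211 in the 5 mutants (green), WT (black) and the empty control (grey), 1 library each, with exact Poisson 95% intervals; an open triangle marks the limit of a 0 count. miR-204-5p stays between 1.21 and 3.49 CPM in the 6 Ago2 libraries, while miR-211-5p ranges from 5.43 CPM in K566A to 64.8 CPM in WT.

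The empty control could set a background for few of these miRNAs. It had 7 counts of miR-9-5p, 1 of miR-124-3p, 142 of miR-128-3p, 9 of miR-129-5p and 0 of the other 6. Together that is 159 counts, 0.475% of the library (0.404 to 0.555), an interval that includes the shares of WT, Q548A, GKT_GKGT and PGKTP_AAAAA and not those of K566A and R792A_C793A. The total was 33461, so 0 counts allow up to 89.7 CPM, above the WT level of each of the 6 undetected miRNAs. miR-9-5p was at 209 CPM in the empty control, and the log2 ratio of WT over empty was -1.55 (-2.59 to -0.23). By counts rather than shares, WT held 2593 times as many miR-128-3p reads and 2709 times as many miR-129-5p reads as the empty control. The total of counted miRNAs in WT was 2834 times that of the empty control, so neither miRNA was shown to differ in its share of those counts. That total holds counted miRNAs only, not all reads sequenced. Enrichment of miRNAs as a whole over the empty control therefore cannot be read from these ratios.

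Among the other tested miRNAs, the closest in pattern were sought for each neural one. For each of the 5 tested, the 2 others whose log2 ratios to WT had the smallest root mean square difference are given as a description over 5 ratios that share the WT library. For miR-128-3p they were miR-299-3p (0.15) and miR-467d-5p (0.17), for miR-124-3p miR-708-5p (0.19) and miR-497-5p (0.21), and for miR-9-5p miR-18a-5p (0.24) and miR-10a-5p (0.29). For miR-219-1-3p miR-365-2-5p was close (0.23) and the next, miR-302a-3p, was at 0.66. The nearest to miR-129-5p were miR-28-3p at 0.55 and miR-199a-5p at 0.57.

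Of a list of 13 further miRNAs taken as neural, 6 passed the mean filter. The list includes miR-211-5p, the seed relative of miR-204-5p that is known from melanocytes. In K566A miR-218-5p (2.87), a motor neuron miRNA, miR-132-3p (2.71), which neuronal activity induces, and miR-7a-5p (1.66) were called higher. miR-211-5p (-3.57) and miR-134-5p (-2.54), a dendritic miRNA of the Dlk1-Dio3 cluster, were called lower, and miR-7b-5p was not called. This gave 3 higher and 2 lower of 6, where 67.1% of all tested miRNAs were called and 47.5% were called higher. The median was 1.02 against 0.92 for all tested miRNAs. The 6 that passed the filter thus moved in both directions, but apart from miR-211-5p their lower call was miR-134-5p alone. By the median of ratios miR-7a-5p (0.82) was no longer called in K566A, which left 2 higher and 2 lower. miR-134-5p, the most abundant of them, had 514 CPM in K566A, 2865 to 3326 CPM in the other mutants and 3001 CPM in WT. In Q548A (6.23% of all called) and R792A_C793A (22.6%) 0 of 6 were called by totals, and miR-211-5p (-1.18) was called lower in R792A_C793A by the median of ratios. In GKT_GKGT (22.8%) miR-211-5p and miR-218-5p (-1.18) were called lower, the second not by the median of ratios (-0.998), and in PGKTP_AAAAA (40.7%) miR-211-5p alone. These scalings of the further list were chosen after seeing the data. The next 4 are named after their values were seen. miR-137-3p, miR-153-3p and miR-488-3p, known from neurons, had at most 22 counts in any library. miR-326-3p had 0 counts in K566A, 390 in Q548A and 159 in R792A_C793A, 743 in GKT_GKGT, 151 in PGKTP_AAAAA and 1103 in WT. It was thus at or under 0.201 CPM in K566A against 11.6 CPM in WT. Its mean of 6.60 CPM left it out of the 6. Without the filter it was called lower than WT in K566A (log2 ratio at most -5.55), Q548A (-1.50) and R792A_C793A (-2.03). Of all miRNAs, 46.2%, 4.53% and 14.9% were called in these comparisons. In GKT_GKGT (0.36) and PGKTP_AAAAA (-0.94) it was not called.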

How the data were processed

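The table used holds raw counts per mature miRNA locus, not normalized, as deposited by the authors. CASAVA 1.8.2, TopHat2 2.0.9 and build mm9 are named in the submitters' processing notes. The counter, the annotation release, the use of strand and how multiply matching reads were handled are not stated in these sources. Of 64 names with several loci and counts, 55 had loci equal within 1% or 3 counts, so each name was taken at its highest locus, and 9 names equal to another were merged with it. CPM used these totals. With 1 library per group no p-value was computed: ratios and arm odds carry exact conditional 95% intervals (Woolf's where all 4 counts reached 500), and log2 ratios a pseudocount of 0.5. Python 3.11.15, SciPy 1.17.1, edgeR 4.0.16 (TMM) and DESeq2 1.42.0 (size factors) were used, and the interval code was tested on simulated data. Arms with starts within 150 nt formed a hairpin. Named were all 10 neural miRNAs, their partner arms, miR-211-5p, the 2 closest patterns of each tested one, and the called or most abundant miRNAs of the other lists. Members and lists were chosen with earlier results of these data known. Reads without molecular identifiers are not independent molecules, so intervals cover counting error only.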

Additional observations from a re-analysis of the deposited data

How the results depend on the processing

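Of 400 recomputed log2 ratios 333 kept their direction and their side of the 2-fold threshold, and of 225 recomputed arm odds 214 did. The number of neural miRNAs called changed with the scaling, the mean filter and the fold threshold. Without that filter the counts were 7 in K566A (4 with it), 2 in R792A_C793A (1), 4 in GKT_GKGT (1) and 3 in PGKTP_AAAAA (1) against WT, and 8 for K566A against each of Q548A, GKT_GKGT and PGKTP_AAAAA. In R792A_C793A the 1 call became 0 by the median of ratios, by TMM and without miR-292-5p in the totals, 2 with loci summed, 5 past 1.5-fold and 0 past 4-fold. In GKT_GKGT it became 0 past 4-fold, and in PGKTP_AAAAA 2 by the median of ratios, TMM or 1.5-fold and 0 past 4-fold. For K566A against R792A_C793A 5 calls became 3 by the median of ratios or TMM, 2 without miR-292-5p and 1 past 4-fold, and against PGKTP_AAAAA 5 became 3 under each of these scalings. For GKT_GKGT against PGKTP_AAAAA 0 became 1 by the median of ratios or past 1.5-fold. Neural hairpins called past 4-fold were 0 in K566A (4 past 2-fold), 0 in R792A_C793A (1) and 3 in GKT_GKGT (5), and past 1.5-fold 1 in Q548A (0).

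Without miR-292-5p the summed share was 3.42% in K566A, 1.47% in Q548A and 1.92% in R792A_C793A, 1.57% in GKT_GKGT, 1.51% in PGKTP_AAAAA and 1.18% in WT. With loci summed it was 4.93%, 1.009%, 1.61%, 0.918%, 0.907% and 0.847% in the same libraries.

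Values that changed sign were not called under any setting named here. By the median of ratios, TMM and totals without miR-292-5p in turn, miR-124-3p in GKT_GKGT was 0.14, 0.18 and 0.26, miR-128-3p 0.081, 0.11 and 0.20, and in PGKTP_AAAAA miR-9-5p was 0.59, 0.39 and 0.22 and miR-128-3p 0.53, 0.34 and 0.16. For GKT_GKGT against PGKTP_AAAAA miR-129-5p was -0.39 by the median of ratios and -0.16 by TMM, miR-219-1-3p -0.24 and -0.014, and miR-128-3p 0.036 without miR-292-5p. The miR-219-1 arm odds in Q548A were -0.033 with a pseudocount of 5. No paired analysis was possible because each group is 1 library. Depth limits the scarce arms and the empty control most.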
